A study of Mus musculus with 6 samples.

Results

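The genes described here encode the peptides calcitonin gene-related peptide (CGRP) and adrenomedullin and the subunits of their receptors. They were 8 genes chosen by symbol (Calca, Calcb, Adm, Calcrl, Ramp1, Ramp2, Ramp3 and Crcp) among the 17524 of the deposited table, and all 8 passed the filter on low values. Messenger RNA was sequenced from the trigeminal ganglion, the sensory ganglion of the face and meninges, in WT mice. The vehicle group and the NTG group held 3 libraries each, 18813027 to 20191300 reads in vehicle and 19248592 to 23774244 in NTG. The labels do not spell out NTG, the usual short form of nitroglycerin, which releases nitric oxide. They also give no strain, age, sex, dose, route, time after treatment or pooling of animals. Nor do they say that the 3 libraries of a group came from separate mice, so each p-value below reflects spread among libraries that may be technical replicates.

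CGRP is a neuropeptide of peptidergic nociceptors that dilates meningeal vessels and is a target of migraine drugs. Its receptor is a complex of the calcitonin receptor-like receptor, encoded by Calcrl, with a receptor activity modifying protein (RAMP). Pairing with RAMP1 gives a CGRP receptor, whereas pairing with RAMP2 or RAMP3 gives adrenomedullin receptors, and the receptors signal through Gs and cyclic AMP. Crcp encodes receptor component protein, an intracellular partner of the CGRP receptor that is also a subunit of RNA polymerase III.

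Calca encodes alpha CGRP and, by alternative use of its exons, calcitonin, while Calcb encodes beta CGRP. The coding stretches of the mature peptides are shown because they decide how far a read can tell the genes apart. They were read from the GENCODE M21 transcripts on GRCm38, and capitals mark bases that differ between the CGRP stretches. Alpha CGRP lies in exon 4 of transcript Calca-201 (chr7:114632470-114632580, minus strand), beta CGRP in exon 4 of Calcb-201 (chr7:114721994-114722104, plus strand) and calcitonin in exon 4 of Calca-202 (chr7:114633665-114633760, minus strand).
alpha CGRP: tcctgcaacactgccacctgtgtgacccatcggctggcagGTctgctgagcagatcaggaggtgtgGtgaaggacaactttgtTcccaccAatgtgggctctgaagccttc
beta CGRP: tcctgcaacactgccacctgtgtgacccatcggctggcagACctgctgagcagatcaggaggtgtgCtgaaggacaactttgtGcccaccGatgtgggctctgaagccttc
calcitonin: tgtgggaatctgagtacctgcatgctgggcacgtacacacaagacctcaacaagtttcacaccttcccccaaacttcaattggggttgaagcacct
The CGRP stretches were identical at 106 of 111 bases, and the encoded peptides of 37 residues differed at 3 of them. The longest run shared by the whole transcripts was 60 bases, and 0 of the 845 windows of 150 bases (the read length) in the alpha CGRP transcript occurred in the beta CGRP transcript. A read of full length therefore differed between Calca and Calcb wherever it fell within these transcripts. The deposited value of Calca is 1 number per library that sums over its transcripts, so CGRP and calcitonin messages were not separated.

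The table places the peptide genes on chromosome 7 (GRCm38): Calca at chr7:114625981-114636910 on the minus strand, with Calcb close by at chr7:114716555-114723368 and Adm at chr7:110627657-110629820, both on the plus strand. The receptor genes are scattered, with Calcrl at chr2:84330626-84425405 on the minus strand and, on the plus strand, Ramp1 at chr1:91179822-91225196, Ramp3 at chr11:6658506-6677478, Ramp2 at chr11:101246334-101248250 and Crcp at chr5:130029306-130060787.

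Compared per kilobase of the longest protein-coding transcript, the CGRP genes stood above their receptor genes in both groups, Calca by far. Calca had 8902 ± 604 normalised reads per kilobase in vehicle and 9678 ± 664 in NTG (SD, n = 3 each), 7.61 ± 0.426 times the level of Calcb in vehicle and 8.89 ± 0.659 times in NTG. Calcb followed at 1170.3 ± 69.7 and 1088 ± 13.9, then Crcp at 442 ± 41.3 and 441 ± 5.45. Among the RAMP genes the order was Ramp2 (278 ± 20.1 in vehicle, 262 ± 25.3 in NTG), Ramp3 (82.3 ± 22.7 and 88.5 ± 11.9) and Ramp1 (18.4 ± 2.99 and 12.4 ± 0.417). Calcrl stood at 23.1 ± 2.47 and 30.6 ± 4.39, and Adm, the adrenomedullin gene, at 22.4 ± 2.21 and 22.5 ± 1.43. In vehicle, Calcrl could not be ranked against Adm, nor Adm against Ramp1, since their libraries overlapped. All other neighbours in this order were separated in both groups, Calcrl, Adm and Ramp1 included in NTG.

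**Figure D1:**
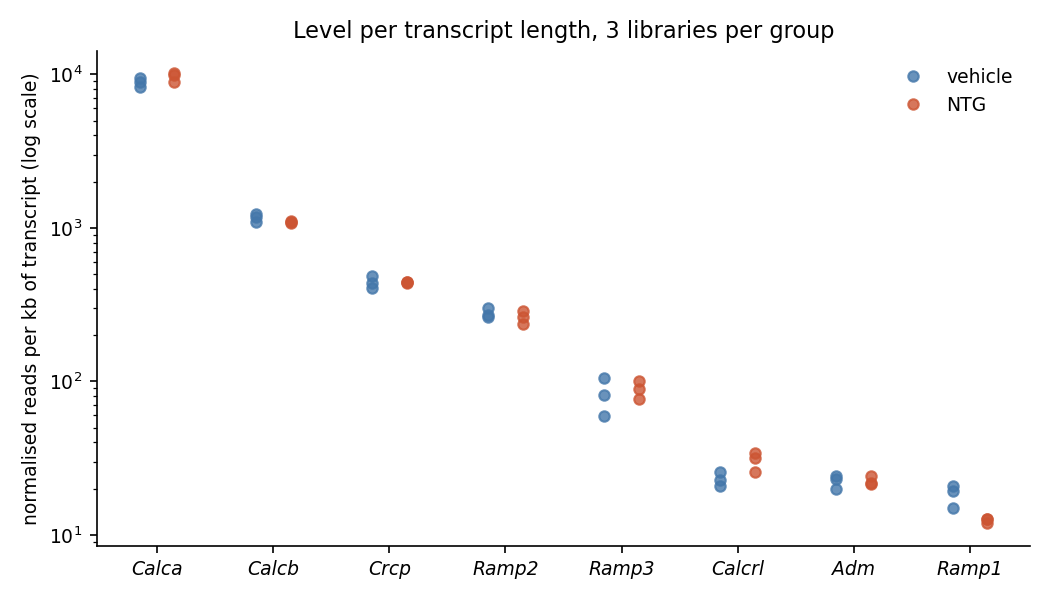
Level of each gene in every library, in normalised reads per kilobase of transcript on a log scale, with 3 vehicle and 3 NTG libraries per gene. Calca stands at 8902 per kilobase on average in vehicle and Ramp1 at 18.4, where its libraries overlap those of Adm.

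The first comparison asked whether NTG changed the level of any of these genes. None of the 8 passed the test (limma-trend on log2(value + 1), two-sided, Benjamini-Hochberg adjusted p under 0.05), against 25.8% of all 17475 genes tested. At an unadjusted p under 0.05, 1 of the 8 passed in limma, against 36.9% of all genes, and 2 in edgeR on recovered reads, against 37% of all genes. Once p-values were adjusted, 0 of the 8 passed in edgeR, against 25.5% of all genes, and 0 in DESeq2, which called 4342 of all genes. The 3 NTG values lay wholly to one side of the 3 vehicle values for 2 of the 8, Calcrl and Ramp1, against 39.7% of all genes. Without NTG replicate 1, Calca alone passed in limma, beside 3081 called among all genes.

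**Figure D2:**
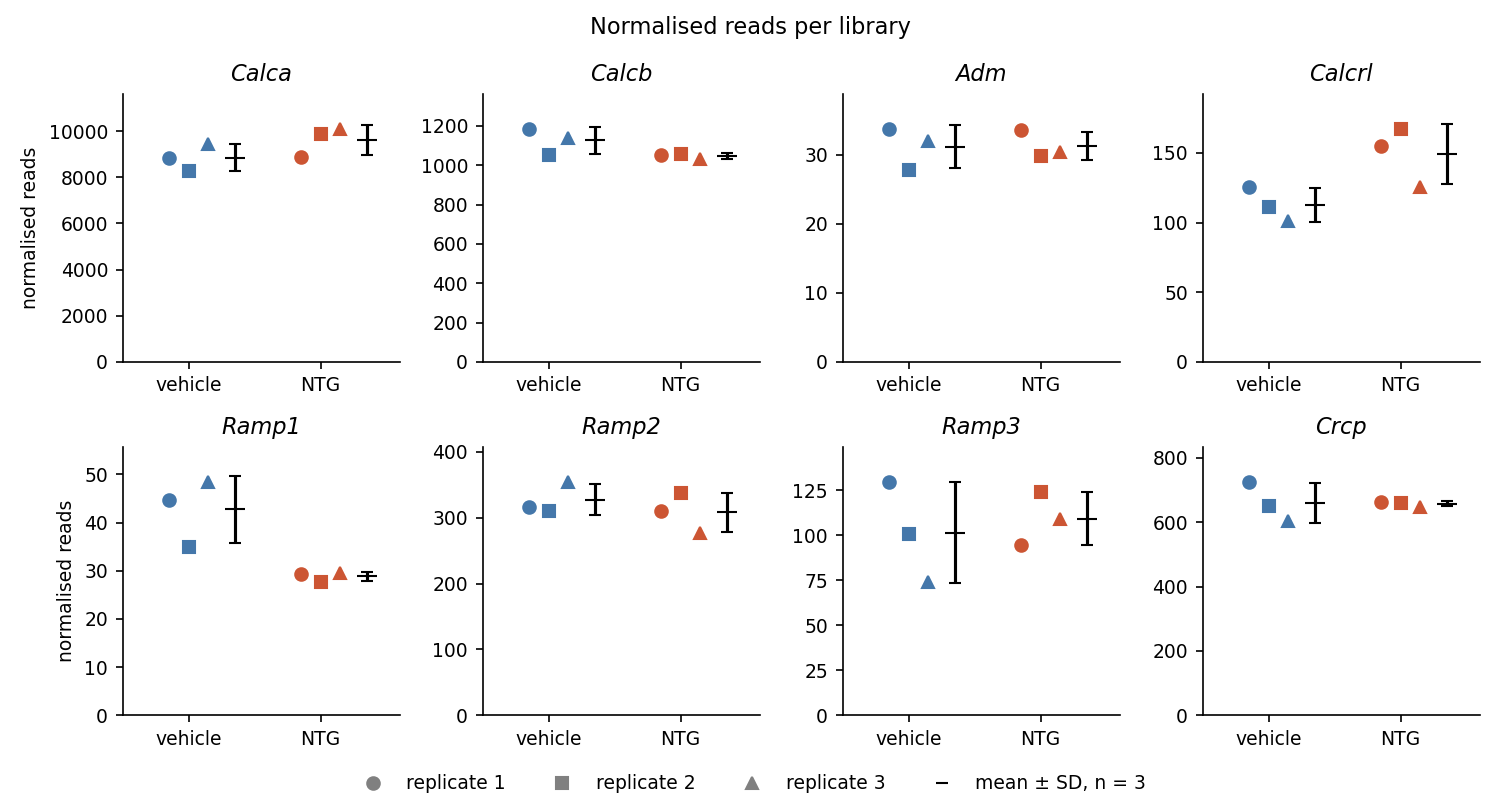
Normalised reads of the 8 genes in each library, on linear axes from 0, with 1 symbol per replicate number and the mean ± SD of 3 libraries as black bars. The groups do not overlap for Calcrl, where NTG is higher, and for Ramp1, where NTG is lower.

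Among the peptides, Calca stood at 8831, 8258 and 9458 normalised reads in vehicle replicates 1 to 3 and at 8870.0, 9881 and 10109 in NTG replicates 1 to 3. The means were 8849 in vehicle and 9620.2 in NTG, and NTG replicate 1 lay within the vehicle range while the others were above it. The log2 fold change of Calca was 0.12 ± 0.06 (SE, limma adjusted p = 0.140), with a 95% confidence interval from 0.999-fold to 1.18-fold. Without NTG replicate 1 it was 0.18 (limma adjusted p = 0.0329), and over the 25 alternatives run the adjusted p ranged from 0.0305 to 0.931. Calcb stood at 1187, 1054 and 1137 in vehicle and 1049.7, 1059 and 1033 in NTG, so that the groups overlapped only through vehicle replicate 2. Its log2 fold change was -0.10 ± 0.07 (limma adjusted p = 0.311), and the interval ran from 0.841-fold to 1.03-fold.

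Alpha and beta CGRP genes thus had estimates of opposite sign, and their ratio was compared within each library, where the library's scaling cancels. Calcb made up 11.8%, 11.3% and 10.7% of the CGRP reads (Calca plus Calcb) in vehicle and 10.6%, 9.68% and 9.27% in NTG. The log2 ratio of Calca to Calcb was 2.97 ± 0.08 in vehicle and 3.20 ± 0.11 in NTG (SD, n = 3 each), a difference of 0.22 or 1.17-fold. All 3 NTG ratios were above all 3 vehicle ratios, but the highest vehicle ratio (3.06) and the lowest NTG ratio (3.08) nearly met. The exact two-sided permutation p was 0.1, the smallest that 3 against 3 libraries can give, and 0.125 after Benjamini-Hochberg adjustment over the 5 ratios compared. The log2 ratio of any other gene to Calcb was without overlap for 36.7% of 17474 genes. The sum of Calca and Calcb ranged from 9312 to 10595 normalised reads in vehicle and from 9920 to 11142 in NTG, and these ranges overlapped.

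Adm was among the lowest of the 8, with 27 to 35 reads per library before normalisation. It stood at 33.8, 27.8 and 31.9 normalised reads in vehicle and 33.5, 29.9 and 30.3 in NTG, with the groups interleaved. The log2 fold change was 0.01 ± 0.30 (limma adjusted p = 0.992), and its 95% interval, from 0.648-fold to 1.56-fold, shows how little this depth can tell about it.

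Calcrl, the seven-helix subunit shared by the CGRP and adrenomedullin receptors, stood at 125, 111 and 101 normalised reads in vehicle and 155, 167 and 126 in NTG. The lowest NTG value, that of replicate 3, exceeded the highest vehicle value, that of replicate 1, by less than 1 read. The log2 fold change was 0.40 ± 0.17 (limma adjusted p = 0.0907, unadjusted p = 0.0289). Ramp1, the subunit that gives the receptor its preference for CGRP, stood at 44.7, 35 and 48.5 in vehicle and 29.3, 27.7 and 29.5 in NTG. Every NTG library was lower than every vehicle library, but these values rest on 26 to 44 reads, and counting error alone gives a coefficient of variation of 19.6% at 26 reads. The log2 fold change of Ramp1 was -0.54 ± 0.29 (limma adjusted p = 0.189), the estimate furthest from 0 among the 8, with an interval from 0.452-fold to 1.05-fold.

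The RAMP genes of the adrenomedullin receptors overlapped between groups. Ramp2 stood at 317, 311 and 355 normalised reads in vehicle and 310.1, 337 and 277 in NTG (log2 difference -0.09 ± 0.11, limma adjusted p = 0.610). Ramp3 stood at 129.7, 101 and 73.8 in vehicle and 94.3, 124 and 109 in NTG, and the vehicle libraries enclosed all 3 NTG libraries (log2 difference 0.13 ± 0.21, limma adjusted p = 0.690). Without vehicle replicate 3 the estimate for Ramp3 was -0.08. Crcp stood at 726, 651 and 604 in vehicle and 664, 660.2 and 649 in NTG. Its log2 fold change was -0.00 ± 0.09 (limma adjusted p = 0.995), with an interval from 0.883-fold to 1.13-fold.

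**Figure D3:**
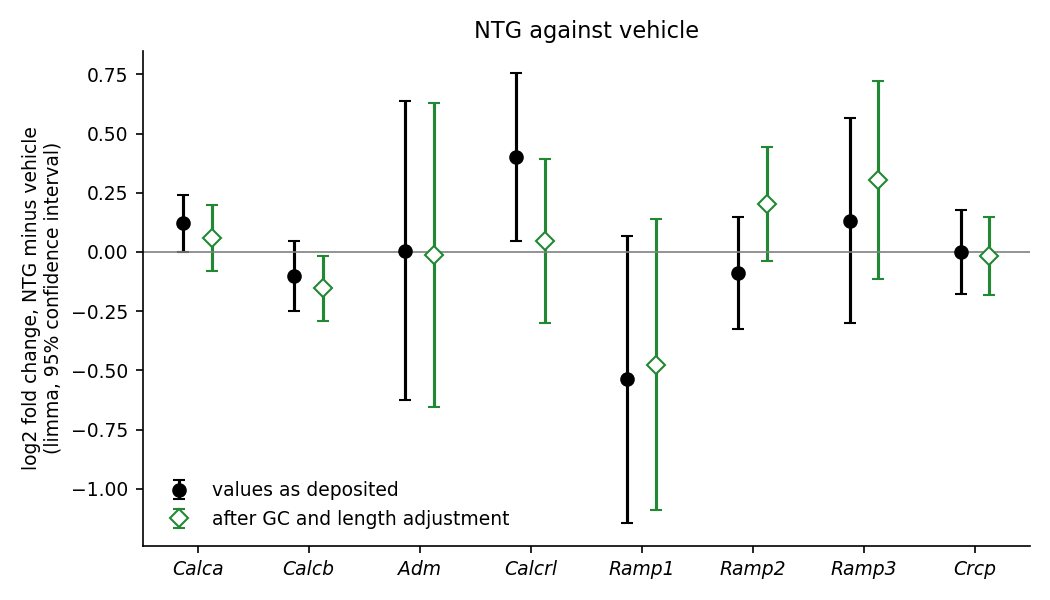
Log2 fold change of each gene, NTG minus vehicle, with 95% confidence intervals from limma, for the deposited values (filled) and after adjustment for transcript GC content and length (open). Calcrl moves from 0.40 to 0.05, Ramp2 from -0.09 to 0.20 and Ramp3 from 0.13 to 0.30, while Ramp1 stays near -0.5 with a wide interval.

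Fold changes over all genes moved with base composition, for a reason that was not tested. The median log2 fold change was 0.36 in the twentieth of protein-coding genes with the lowest transcript GC content (median 38.9%) and -0.38 in the twentieth with the highest (median 61.6%). The 8 genes spread over nearly this whole span. Calcrl, at 37.8% GC, is poorer in GC than all but 1.34% of genes, and its log2 fold change of 0.40 lies beside a median of 0.36 for the 289 genes within 1 percentage point of its GC content. Ramp2, at 60.1% GC, lies above the median of -0.28 of its 707 neighbours, and Ramp3, at 56.1%, above -0.17. Ramp1, at 52.6%, lies below its neighbours' median of -0.04. Calca (48.9%) and Calcb (49.2%) have nearly the same GC content and similar transcript lengths (994 and 962 bases).

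**Figure D4:**
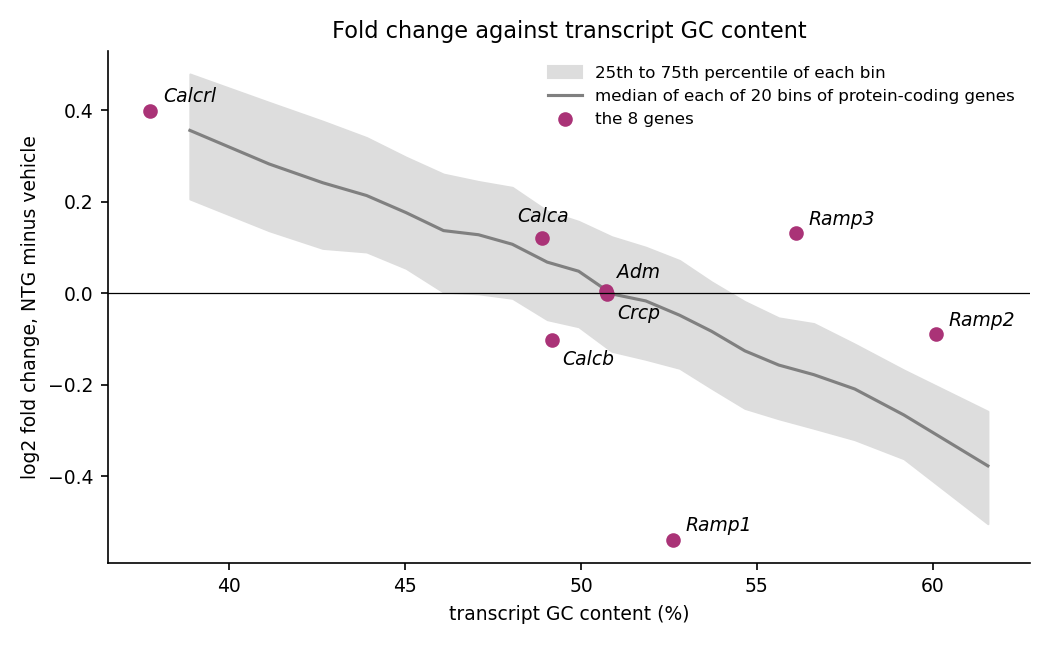
Log2 fold change (NTG minus vehicle) against transcript GC content in percent. The grey line and band give the median and the 25th to 75th percentile of 20 equal bins of protein-coding genes, and the points are the 8 genes, of which Adm and Crcp nearly coincide at 50.7% GC. Calcrl lies close to the line, Ramp3 and Ramp2 above it and Ramp1 below it.

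After each library's smooth trend over GC content and length was removed, 8.99% of 16278 genes passed the test and again 0 of the 8 did. At an unadjusted p under 0.05, 1 of the 8 passed, against 22.5% of all genes. That gene was Calcb, with a log2 fold change of -0.15 ± 0.07 (limma adjusted p = 0.161, unadjusted p = 0.0290). Calca stood at 0.06 ± 0.06 (limma adjusted p = 0.660). Calcrl stood at 0.05 ± 0.17 (limma adjusted p = 0.909) and its groups overlapped. Ramp1 stood at -0.48 ± 0.30 (limma adjusted p = 0.376). The estimate for Ramp2 turned to 0.20 ± 0.12 (limma adjusted p = 0.329), and Ramp3 stood at 0.30 ± 0.20 (limma adjusted p = 0.416). Adjusted values were without overlap for Calcb and Ramp1, 2 of the 8, against 26.5% of all genes.

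The messages of the receptor subunits were then compared as ratios within each library. In bulk tissue such ratios do not show which cells hold each message, nor the composition of the receptor protein. Per kilobase, the RAMP genes together had 16.5 ± 1.64 times the level of Calcrl in vehicle and 11.9 ± 1.03 times in NTG (SD, n = 3 each). Ramp2 held 73.5% ± 5.24 of the summed RAMP level in vehicle and 72.2% ± 2.41 in NTG, Ramp3 21.7% ± 5.59 and 24.4% ± 2.40. Ramp1 held 4.88%, 4.17% and 5.46% in the vehicle libraries and 3.58%, 2.99% and 3.76% in the NTG libraries, with no overlap. Ramp1 alone already separated the groups, on 26 to 44 reads, and how often other genes would separate in this measure was not computed. The summed RAMP level per kilobase overlapped (361 to 394 in vehicle, 337 to 398 in NTG). The level of Ramp1 was 0.749, 0.661 and 1.004 times that of Calcrl in vehicle and 0.397, 0.348 and 0.492 times in NTG.

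On the log2 scale the ratio of Ramp1 to Calcrl was -1.39 ± 0.30 in vehicle and -2.32 ± 0.25 in NTG, a difference of -0.94, or 1.92-fold lower in NTG. With GC and length adjusted the difference was -0.52, and the groups still did not overlap. The ratio of Ramp1 to Ramp2 was lower in NTG by 1.36-fold (difference -0.45 on the log2 scale, and -0.68 after adjustment), without overlap in either case. For both ratios the exact two-sided permutation p was 0.1 before and after adjustment (0.125 over the 5 ratios). On deposited values the separation of Ramp1 to Calcrl, and its p, were fixed in advance by the values of the single genes. Ramp1 alone was lower, and Calcrl alone narrowly higher, in every NTG library than in every vehicle library. The ratio of Ramp2 to Calcrl was 1.53 ± 0.24 in vehicle and 1.05 ± 0.08 in NTG without overlap (exact two-sided permutation p = 0.1), but the difference turned from -0.49 to 0.16 after adjustment, with overlap (exact permutation p = 0.4). The ratio of Ramp3 to Calcrl also turned, from -0.27 to 0.26 (exact two-sided permutation p = 0.3 and 0.2). Its unadjusted difference was -0.14 without NTG replicate 1, -0.15 without vehicle replicate 1 and -0.40 without vehicle replicate 3. For comparison, the log2 ratio to Calcrl was without overlap in 39.7% of all other genes, and in 8.79% after adjustment. The corresponding shares for the ratio to Ramp2 were 27.2% and 17.1%, and that for the ratio to Calcb after adjustment was 39%.

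**Figure D5:**
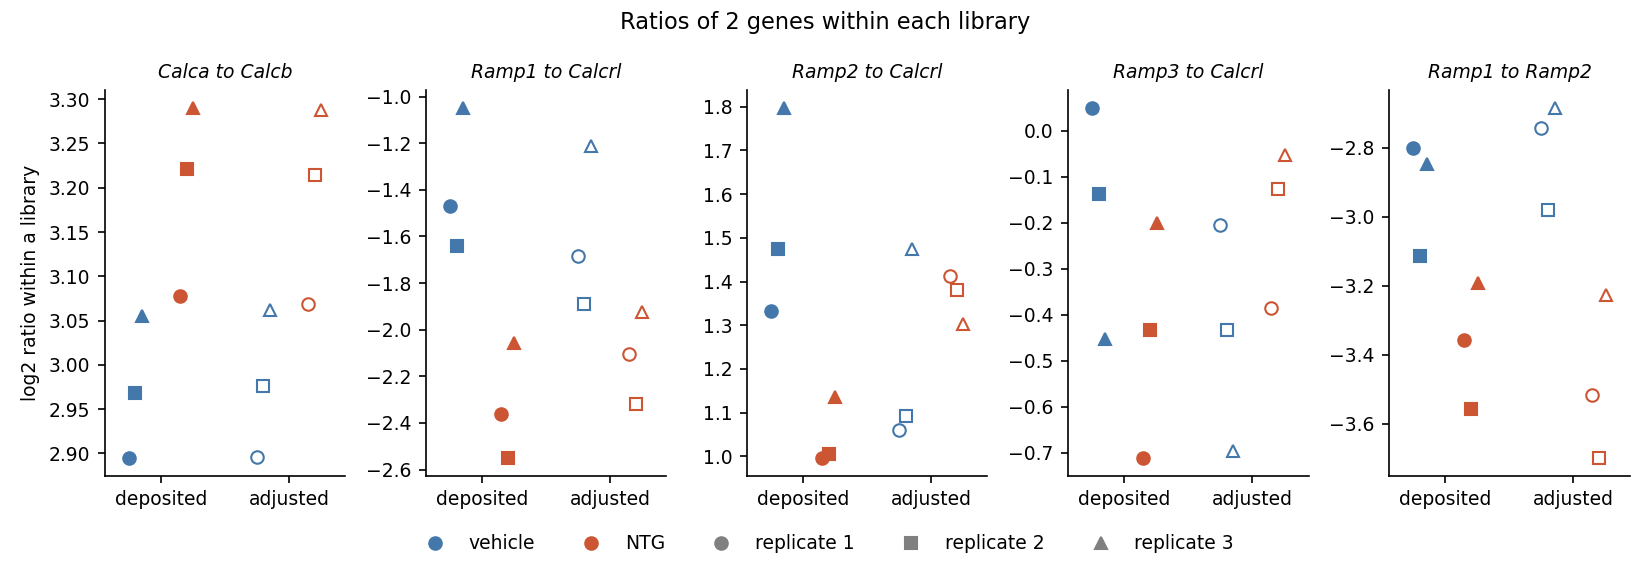
Log2 ratios of pairs of genes within each library, for deposited values (filled) and after GC and length adjustment (open), with 1 symbol per replicate number. The ratio of Calca to Calcb is higher and those of Ramp1 to Calcrl and Ramp1 to Ramp2 are lower in all 3 NTG libraries under both, while those of Ramp2 and Ramp3 to Calcrl change direction.

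The cells that carry these genes were followed through marker lists, described by counts only. These counts stand beside 12.3% of all genes that rose and 13.5% that fell (3.49% and 5.5% with GC and length adjusted). All 10 neuronal markers were detected, and 2 rose and 3 fell (2 and 2 with GC and length adjusted). Their summed level was 285822 to 299248 normalised reads in vehicle and 286529 to 298097 in NTG, of which the neurofilament gene Nefl alone gave 123455 ± 6289 and 132837 ± 1082. Of the neuronal genes for nuclear proteins, Rbfox3 (log2 fold change -0.53, limma adjusted p = 6.28e-06) and Pou4f1 (-0.41, limma adjusted p = 0.000199) fell, and passed again after adjustment. Isl1, another of them, did not pass before (0.01, limma adjusted p = 0.938) or after adjustment (-0.14, limma adjusted p = 0.111). The 2 that rose, Snap25 (0.13, limma adjusted p = 0.0385) and Nefl (0.11, limma adjusted p = 0.0443), did not pass after adjustment. Tubb3 and Prph passed as higher only after adjustment (0.20 for each, limma adjusted p = 0.000191 and 0.000277). Markers named here and below were chosen after their values were seen. Of 7 markers of peptidergic nociceptors, which make CGRP, 1 passed as higher and 2 as lower, and none once GC and length were adjusted for. Their sum was 11295 to 11393 in vehicle and 9989 to 10847 in NTG, while the list's median log2 fold change was 0.07. The lowest member averaged 26.6 normalised reads. Of 12 markers of blood endothelium, a site of Calcrl and Ramp2 expression, 1 passed as higher and 1 as lower (sum 4488 to 5343 in vehicle, 4635 to 4897 in NTG), and of 4 lymphatic markers 0 passed (sum 506 to 618 and 615 to 637). Of 10 smooth muscle and pericyte markers, 1 passed in each direction (sum 4711 to 5165 and 4929 to 5023). None of these lists held a gene at 0. In bulk tissue fewer cells of a type and less RNA per cell cannot be told apart, and the part of these cells in the values of the 8 genes was not tested.

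Skeletal muscle genes, which are foreign to a ganglion, summed to 165 to 318 normalised reads in vehicle and 68.5 to 71.2 in NTG. Of these 8 genes 6 fell, 4 of them also with GC and length adjusted, and the list's median log2 fold change was -1.70. These fold changes rest on few reads: the lowest member, Tnnt3, averaged 7.68 normalised reads. Myh4 varied widely in vehicle (48.3 ± 39.0, against 5.14 ± 1.90 in NTG). For this list and those that follow, the shares of all genes were 12.3% higher and 13.5% lower (3.49% and 5.5% after adjustment). Of 7 satellite glia markers 2 rose and 3 fell (median log2 fold change 0.00). Their sum, 94693 to 99587 in vehicle and 81641 to 87371 in NTG, was mostly the apolipoprotein gene Apoe (73887 ± 1686 and 60740.5 ± 3491), which stood at -0.01 after adjustment. With GC and length adjusted, 1 of the 7 rose, Cdh19 (0.42, limma adjusted p = 0.000446), and 1 fell, Fabp7 (-0.54, limma adjusted p = 6.96e-05). Of 7 fibroblast markers 2 collagen genes fell, Col1a2 and Col3a1, and the list's sum was 25299 to 28525 in vehicle and 21166 to 24723 in NTG. The list's median log2 fold change was 0.18 on deposited values and -0.06 after adjustment. Both collagen genes passed again as lower after adjustment (-0.20 for each, limma adjusted p = 0.00504 and 0.0213). Of 7 Schwann cell markers 1 rose and 3 fell (sum 280024 to 306195 and 264759 to 288573), and of 6 macrophage markers 1 fell (sum 1984 to 2225 and 1786 to 1943). Their part in the results above was not tested.

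Of 5 further genes of calcitonin family peptides and their receptors, 2 were in the table, both receptors, and 0 of these passed the test. Ackr3, a scavenger receptor that binds adrenomedullin, stood at 167 ± 16.8 normalised reads in vehicle and 147 ± 19.3 in NTG (limma adjusted p = 0.409). Gpr182, an atypical chemokine receptor of endothelium once proposed as an adrenomedullin receptor, stood at 51.3 ± 11.9 and 50.5 ± 5.32 (limma adjusted p = 0.992). The genes for the calcitonin receptor (Calcr), amylin (Iapp) and adrenomedullin 2 (Adm2) were not analysed here.

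Peptides such as CGRP are cut from precursors, amidated and stored in dense-core vesicles. Of 13 genes of this machinery 5 rose and 2 fell in NTG, beside 12.3% of all genes that rose and 13.5% that fell, and their median log2 fold change was 0.10 against 0.00 for all genes. Pcsk1, a prohormone convertase, rose from 1326 ± 48.6 to 1976 ± 12.8 normalised reads (log2 difference 0.58 ± 0.06, limma adjusted p = 3.88e-06). Scg5, a chaperone of the related convertase PCSK2, rose from 918 ± 76.0 to 1171 ± 20.9 (0.35 ± 0.07, limma adjusted p = 0.00145). Pcsk1n, whose product inhibits PCSK1, fell from 16844 ± 1408 to 10518 ± 1326 (-0.68 ± 0.09, limma adjusted p = 0.000802). Vgf, which encodes a granin-like precursor, fell from 3462 ± 131 to 2391 ± 269 (-0.54 ± 0.07, limma adjusted p = 2.99e-05). Once GC and length were adjusted for, 4 rose and 1 fell, beside 3.49% and 5.5% of all genes. Pcsk1 (0.30), Scg5 (0.26) and Pcsk1n (-0.47) passed again and Vgf did not (-0.09, limma adjusted p = 0.349). The others that rose, Chga (0.17, limma adjusted p = 0.0130) and Chgb (0.18, limma adjusted p = 0.0157), passed only after adjustment. Before it they stood at -0.07 and 0.07, and they are named here after their values were seen. Pam, the enzyme that amidates CGRP, stood at 3328 ± 167 and 3435 ± 173 (limma adjusted p = 0.621) and is named here after its values were seen.

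The receptors act through Gs and cyclic AMP. Of 21 genes of this route 4 rose and 4 fell (median log2 fold change -0.03), beside 12.3% and 13.5% of all genes, and after adjustment 1 rose and 4 fell, beside 3.49% and 5.5%. Gnas, the Gs alpha subunit gene, fell from 41963 ± 462 to 32956 ± 2160.3 normalised reads (log2 difference -0.35 ± 0.05, limma adjusted p = 1.96e-05), and still passed after adjustment (-0.13, limma adjusted p = 0.0296). Prkaca, a catalytic subunit gene of protein kinase A, fell from 6669 ± 396 to 5377 ± 329 (-0.31 ± 0.06, limma adjusted p = 0.000534) and passed again (-0.17, limma adjusted p = 0.0326). The adenylyl cyclase gene Adcy5 fell by 0.31 on the log2 scale (limma adjusted p = 0.00135), and Creb1, which encodes the cyclic AMP-responsive transcription factor, rose by 0.38 (limma adjusted p = 0.00181). With GC and length adjusted neither passed (-0.05 and 0.06, limma adjusted p = 0.692 and 0.714).

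Occupied receptors are phosphorylated, bound by arrestins and sorted through endosomes. Of 11 such genes 1 rose and 3 fell (median log2 fold change 0.05), and after adjustment 0 rose and 2 fell. Among all genes 12.3% rose and 13.5% fell, and after adjustment 3.49% and 5.5%. Grk2, a receptor kinase gene, fell from 4971 ± 298 to 3790.3 ± 341 normalised reads (log2 difference -0.39 ± 0.07, limma adjusted p = 0.000215) and passed again (-0.16, limma adjusted p = 0.0461). Rab11a, a recycling endosome GTPase gene, rose from 2590.2 ± 54.9 to 3398 ± 111 (0.39 ± 0.06, limma adjusted p = 4.93e-05), but stood at 0.09 after adjustment (limma adjusted p = 0.322). Grk6 (-0.25, limma adjusted p = 0.0177) and the arrestin gene Arrb2 (-0.24, limma adjusted p = 0.0335) fell and did not pass after it (0.787 and 0.600).

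Adm is a textbook target of hypoxia-inducible factor, so other targets were set beside it. Of 11 tested, 3 rose and 2 fell (median log2 fold change 0.07), beside 12.3% and 13.5% of all genes, and after adjustment 2 rose and 2 fell, beside 3.49% and 5.5%. The glycolysis gene Pgk1 rose by 0.25 and the mitophagy receptor gene Bnip3 by 0.28 on the log2 scale (limma adjusted p = 0.000802 and 0.00150), of which Pgk1 passed after adjustment (0.21). Ddit4, a stress-induced inhibitor of mTOR signalling, fell from 3882 ± 546 to 2368 ± 255 normalised reads (limma adjusted p = 0.00104), and the endothelial growth factor gene Vegfa from 1316 ± 36.5 to 1106 ± 117 (limma adjusted p = 0.0180). Both passed after adjustment (-0.49 and -0.26).

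The genes most like Calca, Calcrl and Ramp1 over the 6 libraries were found by the root mean square difference between centred log2 profiles, among 13964 genes. The nearest to Calca were Blmh, a cysteine protease gene (0.02), the kinase gene Stk35 (0.03) and the retromer subunit gene Vps26b (0.03), against a variation of 0.10 in Calca itself. The nearest to Calcrl were the zinc finger genes Zfp874a (0.03) and Zscan12 (0.05) and the peroxisome biogenesis gene Pex3 (0.05), against a variation of 0.25. The nearest to Ramp1 were Kcnk9, a potassium leak channel gene (0.05), the fibroblast growth factor receptor-like gene Fgfrl1 (0.05) and the vesicle protein gene Syngr2 (0.06), against 0.30. Their log2 fold changes were -0.50, -0.48 and -0.47, which the choice by likeness to Ramp1 fixes near its own value.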

How the data were processed

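Per the labels' protocols, RNA was selected with poly-T beads and made into strand-specific libraries, sequenced in paired ends of 150 bases. The submitters' processing notes name FastQC, HISAT2 and GRCm38. No source used here gives the counting tool, strand setting or annotation, and no gene in the table overlapped any of the 8. The authors deposited a signal, gene counts scaled by 1 factor per library. All values (100%) were whole multiples, within 0.01, of the value of 1 read (0.867 to 1.10), which gave back whole reads.

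The test covered genes that reached a value of 1 in 3 or more libraries and was made with limma-trend and robust empirical Bayes on log2(value + 1). Fold changes on this scale understate those of low genes. edgeR, DESeq2 and limma-voom on recovered reads, other pseudocounts, filters and scalings, a replicate block, omission of each library and removal of trends over GC content and length (mgcv, 93.2% of genes tested, longest GENCODE transcript) were alternatives. Group and replicate came from the sample titles. Within groups, counts varied beyond counting error (chi-square over its degrees of freedom 3.97 to 7.35). A level of 3 reads corresponds to 0.126 to 0.159 CPM, for counting error only. Scripts were tested on simulated data.

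The 8 genes and all lists were chosen with earlier results of these data known. Named were the 8 genes, up to 4 called members per pathway list with the smallest p, and the 3 genes nearest to Calca, Calcrl and Ramp1 (mean of at least 20, symbols starting with Gm or ending in Rik left out). Software was Python 3.11.15 with pandas 2.3.3, Biopython 1.88 and matplotlib 3.10.9, and R 4.3.3 with mgcv 1.9.3, DESeq2 1.42.0, edgeR 4.0.16 and limma 3.58.1.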

Additional observations from a re-analysis of the deposited data

How the results depend on the processing

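Of 25 alternatives, 23 called 0 of the 8 genes and 2 called 1, which was Calca: the replicate block (log2 fold change 0.12, limma adjusted p = 0.0305) and the omission of NTG replicate 1. Deviations of same-numbered libraries were hardly correlated across genes (-0.03 to 0.00). With so few libraries this cannot exclude a shared batch, so whether replicate numbers pair the libraries is not known. The block called 5254 of all genes, against 4512 in the main fit. With libraries left out in turn, before and after the GC and length adjustment, the calls ranged from 0 to 1 of the 8 and from 703 to 4670 over all genes, and without NTG replicate 2 were 2945. All genes called numbered 1463 after the adjustment, 2018 with it and the block, and 1591 without trend and robust fitting. Log2 fold changes over these omissions ran from 0.019 to 0.18 for Calca, -0.074 to 0.064 for Adm, -0.037 to 0.52 for Calcrl, -0.16 to 0.32 for Ramp2, -0.076 to 0.49 for Ramp3 and -0.071 to 0.069 for Crcp. The GC and length adjustment, with and without the block, reversed Adm (-0.011) and Ramp2 (0.20), and without the block the ratios of Ramp2 (0.16) and Ramp3 (0.26) to Calcrl. Crcp changed sign under TMM (0.0060), library totals (0.015), edgeR (0.00185) and limma-voom (0.00447). The causes were not tested. Calcb and Ramp1 kept their sign and were not called under any of the 25. The ratios of Calca to Calcb, Ramp1 to Calcrl and Ramp1 to Ramp2 kept their sign under their 9, where no p under 0.1 was possible. Low read numbers limit Ramp1 and Adm most.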
